A study of Macaca mulatta with 4 samples.

Results

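The genes of 6 NMDA receptor subunits, GRIN1, GRIN2A, GRIN2B, GRIN2C, GRIN2D and GRIN3A, were followed in RNA from the amygdala of infant rhesus macaques (Macaca mulatta). They were chosen by symbol, each matched 1 Ensembl macaque gene ID of the 35395 in the count table, and all 6 passed the filter on low counts, which left 15417 genes tested. All 4 libraries were labelled wild type. The 2 control libraries came from 1 female (C-f) and 1 male (C-m); the sources used here do not say what the controls breathed or their exact age. The 2 sevoflurane libraries, again from 1 female (S-f) and 1 male (S-m), followed inhalation of about 2.5 to 3% sevoflurane, an ether given as a volatile general anaesthetic, for 4 hours near postnatal days 7, 21 and 35. The amygdala was taken at once after the third exposure, per the labels, so the values describe tissue at the end of an anaesthetic and not later. The libraries held 12477047 to 16293371 reads on genes. C-m stood apart in its content, with choroid plexus markers summing to 17997 CPM against 9.27 to 34.3 in the others and striatal-type neuron markers to 2354 against 259.6 to 413.9, so the change of each subunit gene is also given without it. CPM here are read counts divided by a library's reads on tested genes and set to a common total, after TMM scaling, which equalizes libraries on the bulk of their genes. With 1 library of each sex in a condition, the spread within a condition includes any difference between the sexes, and p-values measure the spread between these libraries only.

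NMDA receptors are ion channels opened by glutamate together with glycine or D-serine, and they pass calcium once depolarization has lifted a block by magnesium. Each channel joins the obligatory GluN1 subunit, encoded by GRIN1 and binding glycine, to GluN2 subunits, encoded by GRIN2A to GRIN2D and binding glutamate, or to GluN3 subunits, which bind glycine. In the forebrain GluN2B predominates early in life and GluN2A becomes more abundant as circuits mature, and in the amygdala these receptors are needed for fear learning. Sevoflurane and other volatile anaesthetics dampen NMDA receptor currents besides acting on inhibitory receptors.

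Of the subunit genes, 3 were called higher in the sevoflurane libraries: GRIN3A by 45.9-fold, GRIN2B by 12.7-fold and GRIN2A by 4.59-fold. GRIN1, GRIN2C and GRIN2D were not called in either direction. A call means a Benjamini-Hochberg adjusted p under 0.05 over all genes tested, by edgeR's quasi-likelihood test of sevoflurane against control. The background was wide, with 21.3% of all tested genes called higher, 19.4% called lower and 40.7% called in all. The median log2 fold change of the 6 genes was 1.32, and that of all tested genes was 0.0040 (interquartile range −1.02 to 1.09). In tissue RNA, fewer cells of a type and less RNA per cell cannot be told apart, here and below. Gene lengths were not used, so CPM is compared between libraries for 1 gene, never between genes.

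**Figure D1:**
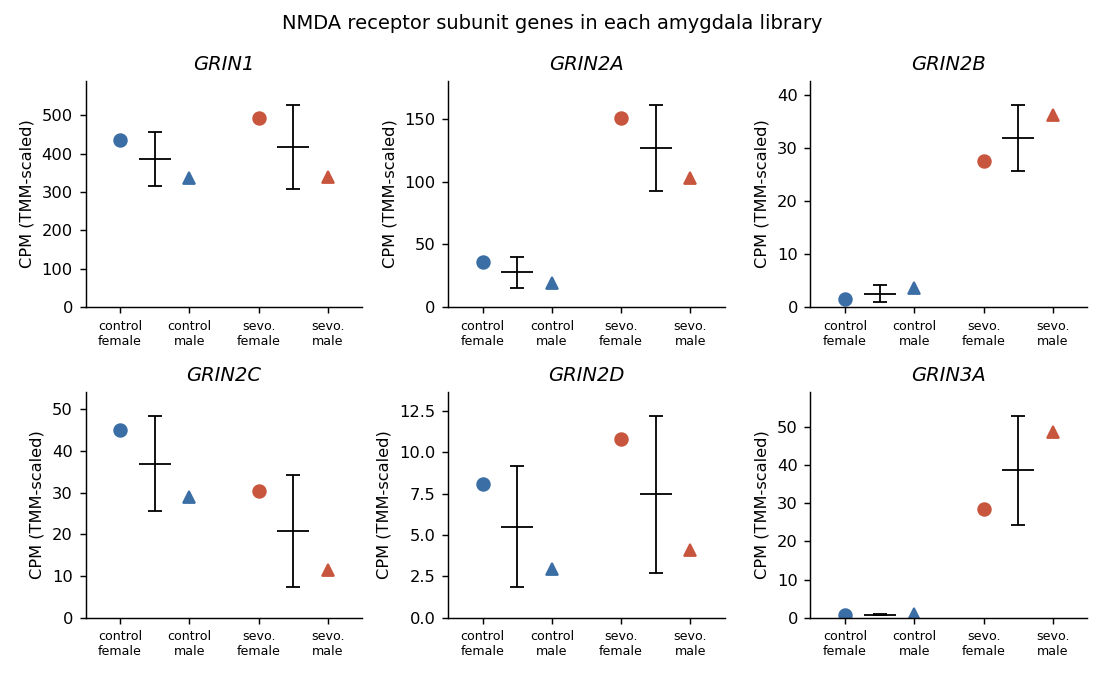
Level of each subunit gene in the 4 libraries (vertical axes, CPM with TMM scaling, each starting at 0 and with its own range), with control libraries in blue, sevoflurane libraries in red, circles for females, triangles for males, and black bars for mean ± SD over 2 libraries. GRIN2A, GRIN2B and GRIN3A do not overlap between conditions, whereas GRIN1, GRIN2C and GRIN2D do. The share of all tested genes without overlap was not counted. Separation of 2 libraries from 2 is weak evidence, as its two-sided exact permutation p cannot be under 0.333.

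GRIN1 (ENSMMUG00000001661), whose product is part of every NMDA receptor, was at 436.4 CPM in C-f, 336.9 in C-m, 494.2 in S-f and 339.1 in S-m. The conditions overlapped, and in both of them the female library was the higher. The means were 386.6 ± 70.3 CPM (SD, n = 2) in controls and 416.7 ± 109.7 after sevoflurane, a log2 fold change of 0.11 ± 0.30 (SE; edgeR adjusted p = 0.797). The 95% interval of that log2 change ran from −0.62 to 0.83, so a moderate change in either direction was not detectable with these libraries. The direction turned without C-m (−0.10) and without S-f (−0.18).

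GRIN2A (ENSMMUG00000010142) encodes the GluN2 subunit of mature forebrain synapses. Its level was 36.3 CPM in C-f, 18.9 in C-m, 151.1 in S-f and 103.0 in S-m. Both sevoflurane libraries lay above both controls, the lower of them 2.83-fold above the higher control. The mean rose from 27.6 ± 12.3 to 127.0 ± 34.0 CPM (SD, n = 2 each), a log2 fold change of 2.20 ± 0.40 (SE; edgeR adjusted p = 0.00798). Between libraries of the same sex the fold was 4.16 in females (95% interval 3.79 to 4.57) and 5.44 in males (4.71 to 6.31), intervals that cover counting error alone.

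GRIN2B (ENSMMUG00000019112) encodes the GluN2 subunit of the early brain, with slower channel closing than GluN2A. It had 22 reads in C-f, 41 in C-m, 435 in S-f and 529 in S-m, or 1.44, 3.64, 27.5 and 36.3 CPM in that order. The low control counts carry a wide counting error, yet the lower sevoflurane library was 7.56-fold above the higher control. The mean rose from 2.54 ± 1.56 to 31.9 ± 6.22 CPM (SD, n = 2 each), a log2 fold change of 3.67 ± 0.54 (SE; edgeR adjusted p = 0.00425). The fold was 19.2 in females (95% counting interval 12.5 to 30.9) and 9.98 in males (7.25 to 14.1). Without C-m, the higher of the 2 controls, the log2 fold change was 4.44.

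GRIN2C (ENSMMUG00000005744), whose GluN2 subunit is best known from the cerebellum and from some glia and interneurons, was at 45.0 CPM in C-f, 28.9 in C-m, 30.4 in S-f and 11.4 in S-m. Each sevoflurane library was below the control of its sex, but S-f lay slightly above C-m. The means were 36.9 ± 11.4 and 20.9 ± 13.4 CPM, a log2 fold change of −0.82 ± 0.51 (SE; edgeR adjusted p = 0.236, 95% interval −2.06 to 0.41). This gene depended on how the sexes were handled and on single libraries. With sex as a second term it was called lower at −0.95 (edgeR adjusted p = 0.0378). That fit left 1 residual degree of freedom and called 50.8% of all tested genes, against 40.7% in the main fit. The log2 fold change was −1.69 without S-f and −1.14 without C-m, and nearer 0 without C-f (−0.45) or S-m (−0.28).

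GRIN2D (ENSMMUG00000005983), a GluN2 subunit of interneurons and of the early brainstem and thalamus, was the least certain. It had 124 reads in C-f, 33 in C-m, 171 in S-f and 60 in S-m (8.09, 2.93, 10.8 and 4.12 CPM). The female libraries were the higher ones in both conditions, and the conditions overlapped. The log2 fold change was 0.43 ± 0.71 (SE; edgeR adjusted p = 0.648, 95% interval −1.27 to 2.14), and it turned to −0.15 without C-m and −0.42 without S-f.

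GRIN3A (ENSMMUG00000016675) encodes a GluN3 subunit that peaks in early postnatal life and lowers calcium entry through the receptors it joins. Only 12 reads were counted in C-f and 10 in C-m, against 450 in S-f and 708 in S-m. In CPM these were 0.783, 0.888, 28.5 and 48.6, so the lower sevoflurane library stood 32.1-fold above the higher control. The log2 fold change was 5.52 ± 0.48 (SE; edgeR adjusted p = 0.00165), and 177 of the 15417 tested genes had a larger one. The fold was 36.4 in females (95% counting interval 20.6 to 70.9) and 54.7 in males (29.6 to 114.7). The gene of the other GluN3 subunit, GRIN3B, is not among the 6 and was named after its values were seen. With 10, 5, 2 and 4 reads in the same order of libraries it failed the filter on low counts and was not tested.

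**Figure D2:**
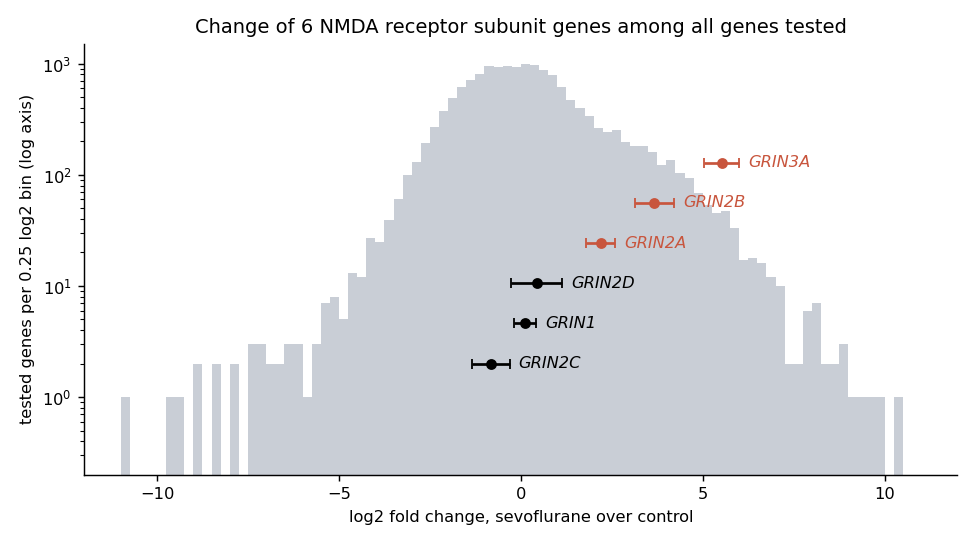
Log2 fold change of each subunit gene (points, bars ± SE, red where called) over the distribution of all 15417 tested genes (grey, genes per bin on a log axis); the height of the points has no meaning. GRIN3A at 5.52 and GRIN2B at 3.67 lie in the upper tail, and GRIN1 at 0.11 lies near the middle.

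The 3 genes called higher were called under all 10 alternatives, at log2 fold changes of 1.77 to 2.77 for GRIN2A, 3.15 to 4.44 for GRIN2B and 5.09 to 5.86 for GRIN3A (adjusted p at most 0.0296 by edgeR or DESeq2). Relative to GRIN1 in the same library, a measure that no scaling of libraries changes, GRIN2A went from 0.0833 and 0.0563 reads per GRIN1 read in C-f and C-m to 0.306 and 0.304 in S-f and S-m. GRIN3A went from 0.00187 and 0.00277 to 0.0577 and 0.143 reads per GRIN1 read. GRIN2C went the other way, from 0.103 and 0.0858 to 0.0615 and 0.0337. None of these 3 ratios overlapped between conditions, nor did that of GRIN2B, at 0.00336 and 0.0109, then 0.0558 and 0.107. For each of them the two-sided exact permutation p was 0.333, the smallest that 2 libraries against 2 allow. The ratio of GRIN2D overlapped, at 0.0186 and 0.00883, then 0.0220 and 0.0123 (two-sided exact permutation p = 0.667).

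The developmental balance of GluN2B to GluN2A was read as GRIN2B reads per GRIN2A read. The ratio was 0.0404 in C-f, 0.194 in C-m, 0.182 in S-f and 0.353 in S-m. GRIN2A had more reads than GRIN2B in every library. The conditions overlapped, because C-m stood above S-f. The mean log2 ratio was −3.50 ± 1.60 (SD, n = 2) in controls and −1.98 ± 0.67 after sevoflurane, a difference of 1.52 (two-sided exact permutation p = 0.667). This difference rested on single controls, being 0.38 without C-f and 2.65 without C-m. Within each sex the log2 ratio was higher after sevoflurane, by 2.18 in females and 0.86 in males. The shift in balance was therefore not larger than the spread between libraries, although each of the 2 genes rose.

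The shares that the 4 GRIN2 genes took of their common reads did not overlap between conditions, which with 2 libraries against 2 is weak evidence. GRIN2C held 49.5% of the reads on the 4 GRIN2 genes in C-f and 53.1% in C-m, against 13.8% and 7.36% in S-f and S-m. GRIN2A held 40.0% and 34.8% in the controls and 68.7% and 66.5% after sevoflurane. GRIN2B held 1.58% and 6.70%, then 12.5% and 23.5%, and GRIN2D 8.90% and 5.39%, then 4.92% and 2.66%. The 4 shares are tied to each other, so a rise of 1 lowers the rest. Reads on all 6 genes summed to 528.0 and 392.2 CPM in C-f and C-m and to 742.5 and 542.5 CPM in S-f and S-m. That sum was mostly GRIN1, which supplied 82.6% and 85.9% of it in controls and 66.6% and 62.5% after sevoflurane. These shares are of reads and depend on transcript lengths, so they are compared between libraries only.

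**Figure D3:**
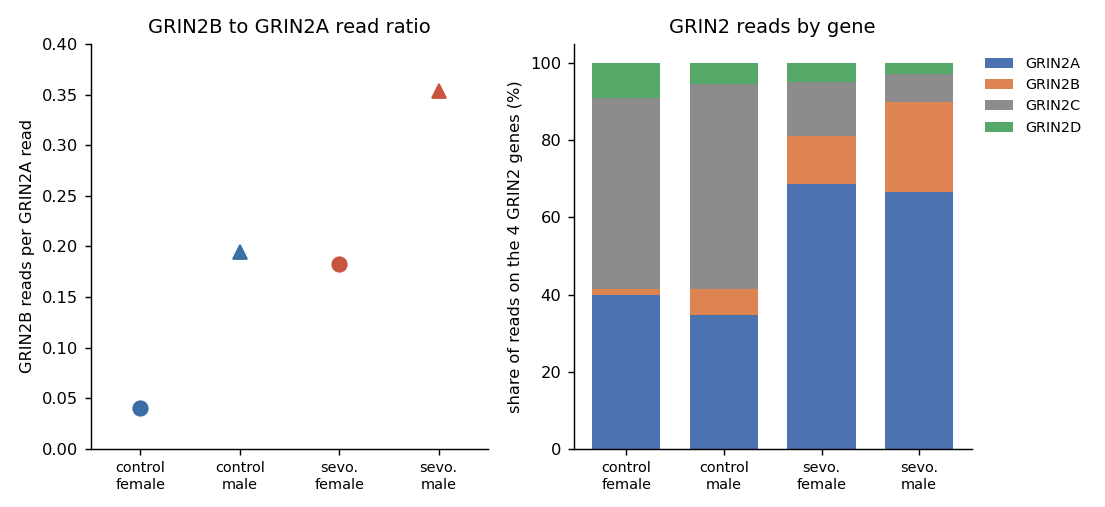
Left, GRIN2B reads per GRIN2A read in each library (blue control, red sevoflurane, circles female, triangles male). Right, share of the reads on the 4 GRIN2 genes that each gene held in each library (%). The ratio overlaps between conditions, while the GRIN2C share is 49.5% and 53.1% in the controls against 13.8% and 7.36% after sevoflurane.

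None of the 6 genes was called between the sexes, where 1.84% of all tested genes were (edgeR, condition and sex as terms, 283 genes). The log2 difference of male minus female was −0.46 for GRIN1, −0.74 for GRIN2A, 0.79 for GRIN2B, −1.02 for GRIN2C, −1.43 for GRIN2D and 0.58 for GRIN3A. Without adjustment 3 of them had an edgeR p under 0.05, each lower in males. Of all 15417 tested genes, 1673 had an unadjusted edgeR p under 0.05 in that fit. The adjusted p by edgeR was 0.225 for GRIN2C, 0.242 for GRIN2D and 0.324 for GRIN2A. DESeq2 also called 0 of the 6. GRIN2B and GRIN3A were the higher in males in both conditions, and the other 4 in females. For GRIN2B the male library held 2.54-fold the female level among controls (95% counting interval 1.48 to 4.47) and 1.32-fold after sevoflurane (1.160 to 1.501). For GRIN3A it held 1.13-fold among controls, within counting error (0.439 to 2.87), and 1.71-fold after sevoflurane (1.51 to 1.93). A difference of the response to sevoflurane between the sexes could not be tested with 1 library of each.

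The genes of most similar pattern were sought among 11307 tested genes with a symbol and a mean of at least 5 CPM, by the distance between log2 CPM values centred over the 4 libraries. Nearest to GRIN1 were ZNF384, EXOSC2 and MKNK1 (distances 0.05, 0.05 and 0.07). Nearest to GRIN2A were DIP2A, CEP170B and RTL5 (0.09, 0.10 and 0.14), with log2 fold changes of 2.16, 2.18 and 2.20. TENM4, XKR4 and SPAST lay nearest to GRIN2B (0.23, 0.24 and 0.26), and HS6ST2, RC3H2 and KAT2B nearest to GRIN3A (0.14, 0.20 and 0.20). For GRIN2C they were JDP2, TRAF2 and MARCHF11 (0.14, 0.18 and 0.18), and for GRIN2D COBL, PROKR2 and THBD (0.16, 0.18 and 0.21). A pattern over 4 libraries is coarse, so the names describe a shape and no more. Among the 6 genes themselves, the nearest pair was GRIN1 and GRIN2D and the farthest GRIN2C and GRIN3A at 6.42, and the 3 called genes lay 1.76 (GRIN2B and GRIN3A), 2.24 (GRIN2A and GRIN2B) and 3.25 (GRIN2A and GRIN3A) apart.

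Among the other ionotropic glutamate receptors, 4 of 11 AMPA, kainate and delta subunit genes were called higher and 0 lower, beside the 21.3% and 19.4% of all genes (median log2 fold change 0.74). Without S-m 2 were called higher and the median was 0.28, and 1 gene was called lower with DESeq2 or with sex as a term. GRIK2, a kainate receptor subunit, rose from 15.1 ± 5.71 to 89.5 ± 14.5 CPM (SD, n = 2 each; log2 fold change 2.57 ± 0.36 SE). GRIK3, another kainate subunit, was at 1.11 and 0.178 CPM in C-f and C-m and at 31.0 and 10.03 in S-f and S-m. Its log2 fold change of 4.91 ± 0.93 ranged from 3.91 without S-f to 6.79 without C-f, and was 4.16 without C-m and 5.51 without S-m. GRIA2, the AMPA subunit that limits calcium entry, was also called and was named after its values were seen (1.55 ± 0.36, call lost without S-m).

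Of 20 genes of scaffold proteins, which anchor NMDA receptors at the postsynapse, 10 were called higher and 2 lower, with a median of 1.51. Here and in each list below, such counts stand beside the 21.3% of all tested genes called higher and the 19.4% called lower. Those shares belong to the fit of all 4 libraries. With any 1 library left out, fewer genes of the whole table were called. List counts from such fits, above and below, have no matching share here and are not read as a property of the list. DLG2, which encodes the scaffold PSD-93 that binds GluN2 tails, rose from 6.47 ± 1.74 to 289.3 ± 60.9 CPM (5.47 ± 0.37 SE). SHANK2, a scaffold deeper in the postsynaptic density, was at 2.02 and 1.60 CPM in C-f and C-m and at 92.2 and 53.9 in S-f and S-m (5.32 ± 0.44). HOMER3, which links the density to metabotropic receptors, fell from 31.0 ± 5.10 to 5.29 ± 2.91 CPM (−2.55 ± 0.48, and −3.25 without S-f). BAIAP2, an actin regulator of spines, fell from 265.6 ± 43.8 to 96.2 ± 22.8 CPM (−1.47 ± 0.29).

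Of 19 tested genes for transport and surface partners, 8 were called higher and 3 lower (median 0.52). KIF1B, a kinesin motor, rose from 48.4 and 48.3 CPM in C-f and C-m to 499.8 ± 31.6 CPM (3.37 ± 0.26 SE), and APBA1, the adaptor Mint1 of the kinesin complex that carries GluN2B, rose from 2.62 ± 0.816 to 78.5 ± 10.5 CPM (4.89 ± 0.38). LIN7B, a small adaptor of that complex, fell from 68.0 ± 8.55 to 9.73 ± 0.515 CPM (−2.80 ± 0.30). GIPC1, an adaptor that binds receptor tails, fell from 112.7 ± 22.0 to 28.3 ± 4.33 CPM (−1.99 ± 0.29). APBA1 and LIN7B were thus called in opposite directions, but the LIN7 genes also differed among themselves. LIN7A was called higher (2.06 ± 0.41, and 1.68 without S-m) and LIN7C was not called (0.22 ± 0.25), both named after their values were seen. The kinesin gene KIF17, also listed, matched no gene ID. The third gene called lower was AP2M1, a subunit of the AP-2 endocytic adaptor, named after its values were seen (−1.20 ± 0.25, call lost without S-m).

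Of 28 genes for kinases, phosphatases and other signalling downstream of the receptor, 11 were called higher and 4 lower (median 0.71; 5 higher without S-m). The count lower was 2 without C-m or either sevoflurane library. RASGRF2, a Ras activator driven by calcium, rose by 4.27 ± 0.41 (log2, SE) and PRKCA, a protein kinase C, by 4.08 ± 0.34. CDK5, a kinase of GluN2 subunits, changed by −1.55 ± 0.25 and CSNK2B, the regulatory subunit of casein kinase 2, by −1.92 ± 0.27. PTPN5, the phosphatase STEP that acts on GluN2B, was also called lower and was named after its values were seen (−1.19 ± 0.28, call lost without C-m, S-f or S-m).

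Of 15 tested genes for glycine and D-serine supply, 2 were called higher and 3 lower (median −0.73), in a pathway that makes and carries the co-agonists of the receptor. PHGDH, the first enzyme of serine synthesis, fell from 132.6 ± 13.2 to 51.1 ± 6.09 CPM (−1.38 ± 0.26 SE), and SLC38A5, a glutamine and glycine transporter, from 67.4 ± 7.90 to 24.4 ± 4.05 CPM (−1.47 ± 0.29). SLC38A1, a neuronal amino acid transporter, rose from 11.8 ± 1.91 to 167.8 ± 0.336 CPM (3.82 ± 0.29). SLC1A4, which carries neutral amino acids including serine, rose by 1.15 ± 0.28, a call lost without C-m (edgeR adjusted p = 0.148), S-f (0.0580) or S-m (0.0506). In each of these 3 fits 1 gene of the list was called higher. The third gene called lower, named after its values were seen, was SLC7A10, the D-serine and glycine transporter Asc-1 (−1.28 ± 0.35, call lost without any 1 library and with library totals).

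Of 12 tested genes for glutamate release, synthesis and uptake, 5 were called higher and 1 lower (median 0.93; 2 higher without S-m). SLC1A2, which clears most synaptic glutamate into astrocytes, rose from 22.3 ± 9.01 to 438.9 ± 97.7 CPM (4.30 ± 0.41 SE). Also called higher, and named after their values were seen, were SLC7A11, the cystine and glutamate exchanger (5.08 ± 1.09, 0 reads in C-m, 4.18 without C-m, call lost without S-m), SLC1A1, a neuronal glutamate transporter (1.05 ± 0.30, call lost without C-f, C-m or S-m), and SLC38A2 (0.85 ± 0.28, call lost without any 1 library). The gene called lower, SLC1A6, is a glutamate transporter best known from Purkinje cells (−1.20 ± 0.31). It was no longer called with library totals (edgeR adjusted p = 0.0563), without C-f (0.135) or without S-m (0.111).

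Of 9 genes of the REST and Polycomb repressor complexes, which are known to act on GRIN2B as forebrain synapses mature, 4 were called higher and 0 lower (median 0.22). The count higher was 2 without either control or without S-m. REST, the DNA-binding repressor, was at 0.718 and 0.622 CPM in C-f and C-m and at 10.3 and 11.6 in S-f and S-m (4.01 ± 0.54 SE). RCOR1, its corepressor, rose by 3.98 ± 0.65 and was at 4.78 without C-f. The other 2, named after their values were seen, were the corepressor SIN3A (0.85 ± 0.27, call lost without any 1 library and with no low-count filter) and the Polycomb subunit SUZ12 (1.09 ± 0.29, call lost without C-f, C-m or S-m). Whether any of these genes acted on GRIN2B in this tissue was not tested.

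**Figure D4:**
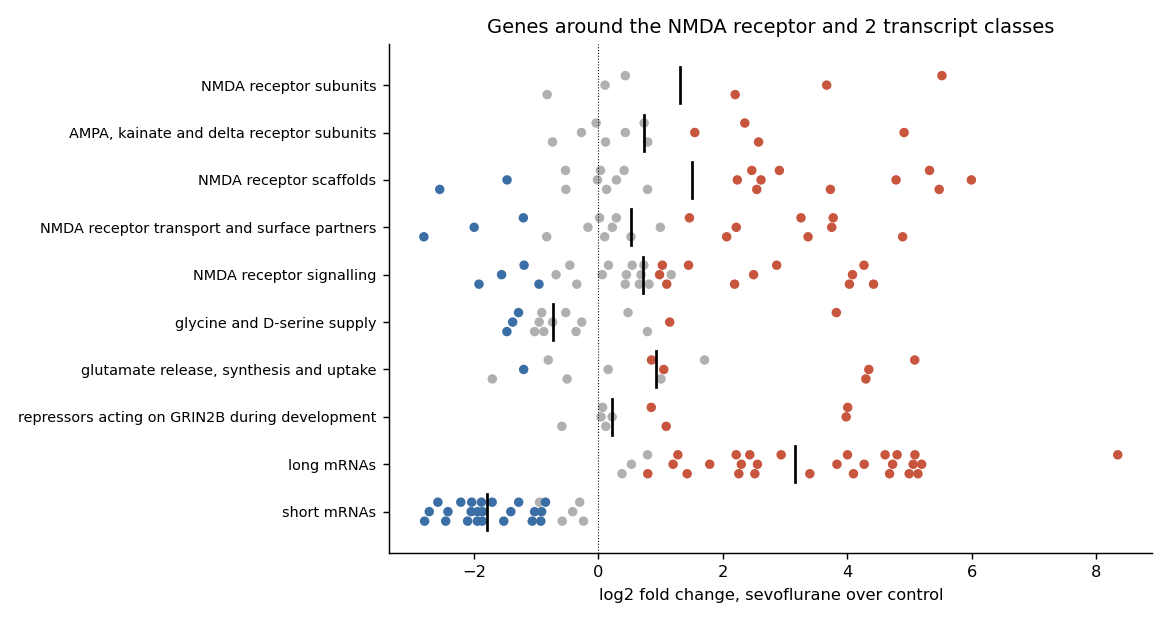
Log2 fold change of each tested gene (points) in the subunit list, 7 lists of genes around the receptor and 2 transcript classes, with red for called higher, blue for called lower, grey for not called, and black bars at list medians. The long messenger RNAs have a median of 3.17 and the short ones −1.78, and the lists around the receptor have medians between −0.73 and 1.51.

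The whole table differed by class of transcript, and these values stand beside every result above. Of 30 genes chosen as having long messenger RNAs, 27 were called higher and 0 lower (median log2 fold change 3.17). Of 28 tested genes with short messenger RNAs, 0 were called higher and 23 lower, with a median of −1.78. DST and SYNE1, giant cytoskeletal proteins, changed by 1.79 ± 0.27 and 1.28 ± 0.34 (log2, SE), and PSMA1 and PSMA2, proteasome subunits, by −0.24 ± 0.32 and −0.85 ± 0.24. GRIN2B and GRIN3A lay above the long list's median and GRIN2A below it. These classes were written from general knowledge, lengths were not measured, and the part of transcript class in the change of the subunit genes was not tested.

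Cell content was read from marker lists, whose counts of calls again stand beside the 21.3% of all tested genes called higher and the 19.4% called lower. Neuronal, glial and vascular markers were present in all libraries, except that ABCC9 and FOXP2 had 0 reads in C-m, and no list used here marks the amygdala against neighbouring forebrain. General neuronal markers summed to 8770 to 8784 CPM in controls and 8408 to 9804 after sevoflurane, with 3 of 10 called higher and 2 lower. These similar sums hid large opposite changes, in genes named after their values were seen. MAP2 (log2 fold change 6.82 ± 0.50 SE), SYT1 (5.24 ± 0.77) and ELAVL4 (3.23 ± 0.60) were called higher. RBFOX3 (−1.04 ± 0.32) and THY1 (−1.24 ± 0.27) were called lower. The change of MAP2 was larger than that of any subunit gene. Excitatory neuron markers summed to 5929 to 7361 CPM in controls and 3277 to 4078 after sevoflurane, with 0 of 8 called higher and 1 lower. The 1 lower was NRGN, a calmodulin-binding protein named after its values were seen, at 4110 ± 716 CPM in controls and 735 ± 354 CPM after sevoflurane (SD, n = 2 each), the largest part of the control sum. By contrast 5 of the 8 had a higher mean after sevoflurane and the list's median log2 fold change was 0.56. Inhibitory markers summed to 1772 to 2002 and 964 to 1314 CPM (2 of 12 higher, 3 lower). The 3 lower, named after their values were seen, were the neuropeptide genes SST (−1.98 ± 0.39), CCK (−2.02 ± 0.30) and NPY (−1.80 ± 0.34). GAD1 (0.30 ± 0.31) and GAD2 (0.39 ± 0.26), the first 2 of the list, were not called. Of the 12, 5 had a higher mean after sevoflurane, and the list's median log2 fold change was −0.56. Immature neuron markers summed to 2652 to 3085 and 1589 to 1677 CPM (2 of 7 called higher, 1 lower). As for the excitatory markers, the sum and the list differed in sign. Of these 7 genes, 5 had a higher mean after sevoflurane and the median was 0.88. Calls higher and lower were 3 and 4 of 10 for astrocytes, 1 and 0 of 9 for oligodendrocytes, 1 and 1 of 6 for their precursors, 1 and 7 of 11 for microglia, 2 and 2 of 8 for endothelium, 2 and 2 of 7 for pericytes and smooth muscle, and 3 and 2 of 8 for striatal-type neurons. GRIN2A, GRIN2B and GRIN3A were also called without C-m, where choroid plexus markers were high, at log2 fold changes of 1.77, 4.44 and 5.58 (edgeR adjusted p = 0.0127, 1.56e-04 and 7.37e-05). The part of cell content in the changes was not tested.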

How the data were processed

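RNA of 4 amygdala libraries was sequenced, and the authors deposited 1 table of raw read counts per Ensembl macaque gene. Reads were aligned with HISAT2, per the submitters' processing notes; the sources used here do not give its version, nor the counting program, strand setting, genome build or annotation. Without strand and counting rules, genes that overlap others are uncertain. An ID-to-symbol table matched 24173 of the 35395 IDs. Groups and sexes came from the labels, which give no replicate numbers. From the counts, low genes were removed (filterByExpr, minimum count 10), libraries scaled by TMM, and conditions compared in R 4.3.3 with edgeR 4.0.16 (quasi-likelihood test, condition as the only term, 2 residual degrees of freedom, called at adjusted p under 0.05 by Benjamini-Hochberg). The sexes were compared with condition and sex as terms. Standard errors came from the F statistic and 95% intervals from the test's t distribution. Counting intervals are exact conditional binomial intervals at 95%. Read ratios used a prior count of 0.5 and an exact permutation test.

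The subunits and gene lists were chosen with earlier results of these data known. All 6 subunits were named, along with the 2 called genes of smallest p in each direction from each of the other pathway lists (some genes of these lists are counted but not reported here by name), the first 2 tested genes of a transcript class where given, and 3 nearest genes per subunit on log2 CPM (prior count 2). Alternatives were library totals, RLE size factors, DESeq2 1.42.0, 2 other low-count filters, sex as a term, and each library left out; their use on the gene lists was added after seeing the data. Relative to TMM, library totals moved the median log2 fold change of all genes from 0.0040 to 0.24.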

Additional observations from a re-analysis of the deposited data

How the results depend on the processing

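The 6 subunit genes under 10 alternatives each gave 60 values, of which 54 kept both direction and side of the threshold. In all 10, 3 subunit genes were called higher. The count called lower went from 0 to 1 (GRIN2C) with sex as a term, the replicate block here, and ranged from 0 to 1 with each library left out. GRIN1 turned to −0.10 without C-m and −0.18 without S-f and reached 0.36 without S-m. GRIN2D turned to −0.15 and −0.42 in the first 2 of these fits and reached 1.36 without C-f; the cause was not tested. All genes called, 6278, ranged from 3469 (without S-m) to 5800 with each library left out, when 3 libraries remain and the lone one is assumed to vary like the others. With sex as a term 7825 genes were called, 50.8% of those tested. Library totals made 63.3% of calls higher, against 52.3% in the main fit. The GRIN2B to GRIN2A difference kept its sign (1.46 with prior count 2, 1.53 with a smaller one). Depth limits GRIN2B and GRIN3A in controls, at 10 to 41 reads.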
